A study of Rattus norvegicus with 82 samples.

Results

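Gene expression in isolated cardiomyocytes of the right ventricle (RV) was compared with that of the left (LV) in younger sham-operated rats. Samples were chosen by the group name Sham-H in their titles, which gave 14 of the 82 libraries of the series, 7 from the RV and 7 from the LV. The animal number in the titles pairs them, so that each of 7 animals (of 41 in all) gave both ventricles. The rats were F1 offspring of female Wistar Kyoto and male Lewis rats, 3 were male and 4 female, and each library came from 1 animal by the labels. They had undergone sham surgery without a constricting band and were 11 weeks old at harvest, 7 weeks after surgery, according to the labels, although the protocol text of the labels and the study's methods give other ages for the surgery than follow from this. Sham-H is the control for the compensated stage of pulmonary artery banding (PAB-H) or aortic banding (AOB-H), and Sham-F (9 animals, 31 weeks old, 26 weeks after surgery) is the control for the failing stage (PAB-F, AOB-F). By the labels PAB-H and AOB-H share the age and time of Sham-H, and AOB-F those of Sham-F, whereas the PAB-F animals were 28 weeks old, 22 weeks after surgery. Hearts were digested with collagenase, the ventricles were separated, and cardiomyocytes were enriched by filtering and centrifugation, so that other cells could remain.

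Both ventricles use the same contractile and calcium handling proteins, but they arise from different progenitor fields and work against different pressures after birth. The LV pumps into the systemic circulation and the RV into the lungs. Natriuretic peptides, which heart muscle releases when its wall is stretched, Iroquois transcription factors, which help to set regional identity and electrical gradients in the ventricular wall, and skeletal actin, a gene of fetal and loaded heart muscle, are textbook examples of genes that vary between heart regions.

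Library depth ranged from 11530325 to 19665439 counts assigned to genes, and between 12738 and 13142 genes had at least 1 count. The libraries were not equally alike. On the first principal component, which held 56.2% of the variance, the 7 RV libraries lay close together, between -25.6 and -16.2, while the LV libraries spread from -12.6 to 92.7. LV replicate 4 stood farthest out, at 92.7, followed by LV replicate 5 at 55.4. The median correlation of LV replicate 4 with the other LV libraries was 0.916, and the other LV libraries had values between 0.957 and 0.980. A gap between short and long genes was largest in replicates 4 and 5. In replicate 4 the median log2 difference between RV and LV was -0.31 for the shortest 2187 genes and 0.26 for the longest 2186, and in replicate 5 it was -0.07 and 0.16. Replicate 6 had a smaller gap (-0.03 and 0.08), and in replicate 1 the values ran the other way (0.06 and -0.03). Over all animals, the medians of the fitted log2 fold changes were -0.04 and 0.08. The main counts are therefore given with and without replicate 4. The male-specific gene *Eif2s3y* was present in both ventricles of the 3 animals labelled male and had 0 counts in those labelled female.

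**Figure D1:**
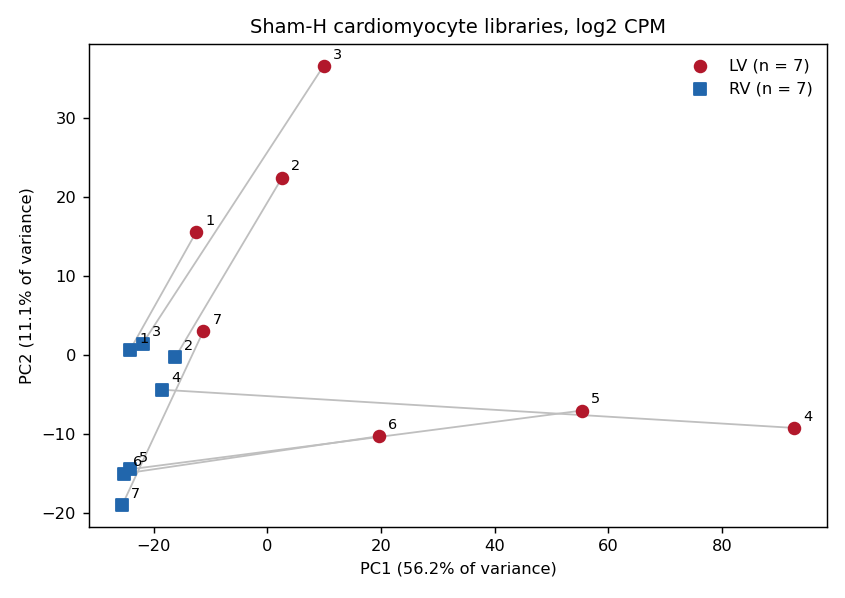
Principal components of the 14 Sham-H libraries, from log2 counts scaled to library size. Each point is 1 library with its replicate number (circles LV, squares RV), and grey lines join both ventricles of 1 animal. The RV libraries lie between -25.6 and -16.2 on the first component and LV replicate 4 at 92.7.

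Markers of ventricular cardiomyocytes were abundant in every library. The 9 ventricular cardiomyocyte genes took 13.2% ± 0.255 of all counts in the RV and 11.8% ± 1.45 in the LV (SD, n = 7 each), and *Myh6*, the main myosin heavy chain of the adult rat ventricle, alone took between 3.31% and 6.22% of a library. The marker score (the mean log2 CPM of a list) of ventricular cardiomyocytes was 0.15 higher in the RV, in 7 of 7 animals. Endothelial genes were present at a low level in every library. Their 8 genes took between 0.0848% and 0.118% of the counts in the RV and between 0.122% and 0.287% in the LV, the highest in LV replicate 4. The endothelial score was lower in the RV by 0.74 on average (difference -0.74, without replicate 4 -0.71), and that of mural cells (pericytes and smooth muscle) by a difference of -0.39, each in 7 of 7 animals. Scores of conduction system genes were 0.17 higher in 7 of 7 animals. For these 4 lists the exact two-sided sign-flip permutation p was 0.0156, the smallest that 7 animals allow, and 0.0508 after adjustment over 13 lists. With the median over the genes in place of the mean, the differences of ventricular cardiomyocytes (-0.10) and mural cells (0.07) had the opposite sign. Red blood cell genes differed by -0.23 (exact permutation p = 0.0312, adjusted p = 0.0813). The other 8 lists had exact permutation p values between 0.0938 and 0.984. These were atrial cardiomyocytes (-0.08), fibroblasts (-0.12), macrophages (-0.12), neutrophils (-0.01), lymphocytes (-0.26), Schwann cells (-0.15), adipocytes (-0.23) and mesothelial cells (-0.02). Counts of single markers of blood cells and adipocytes were low but not uniformly so. *Mpo* and *Adipoq* reached 3 counts in a library, *Cd8a* 16 and *Cd3e* 23, and the red blood cell genes took up to 0.0114% of a library. *Hba1* and *Cd79b* were at 0, as were *Ndufa1* and *Col1a2*, genes that heart tissue expresses, so that a 0 in this table does not show that a cell type was absent. In bulk RNA, fewer cells of a type and less RNA per cell cannot be told apart.

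Of 10929 genes tested, 1623 (14.9%) differed between the ventricles at an adjusted p under 0.05. With 597 genes (5.46%) higher and 1026 genes (9.39%) lower in the RV, lower levels were the more frequent in this fit. The balance turned with other fits, to 2114 higher and 1773 lower in the blocked fit over 82 libraries, and to 1691 higher of 3105 called with DESeq2 and the animal. Without replicate 4 the counts were 461 (4.22%) and 862 (7.89%), and of the genes called with all animals, 394 higher and 817 lower genes were called again in the same direction. Other animals moved the count more, to 976 without replicate 2, 670 without replicate 3, 511 without replicate 5 and 633 without replicate 6. A stricter set of fold criteria, adapted here from those the study used for diseased against control hearts by asking for the level in either ventricle, requires that the log2 fold change exceeds 1 in size, that p before adjustment is 0.01 or less, and that 1 of the ventricles averages more than 50 normalized counts. They were met by 326 genes (2.98%), 86 higher and 240 lower in the RV. Genes higher in the RV made up 26.4% of these, 12.1% of 199 without replicate 4, and 11.4% of 341 when the pairing by animal was left out. Of the 86 higher genes 63 had their lowest LV value in LV replicate 4, and of the 240 lower genes 201 had their highest LV value there. Without replicate 4, 21 of the 86 and 168 of the 240 met the criteria again. In 293 of the 326 genes all 7 animals lay on the same side, as did 22.5% of all genes tested. The RV and LV libraries did not overlap for 169 of the 326 genes, and for 5.12% of all genes. Since the 326 genes were chosen by large differences in these same libraries, both counts follow in part from that choice.

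**Figure D2:**
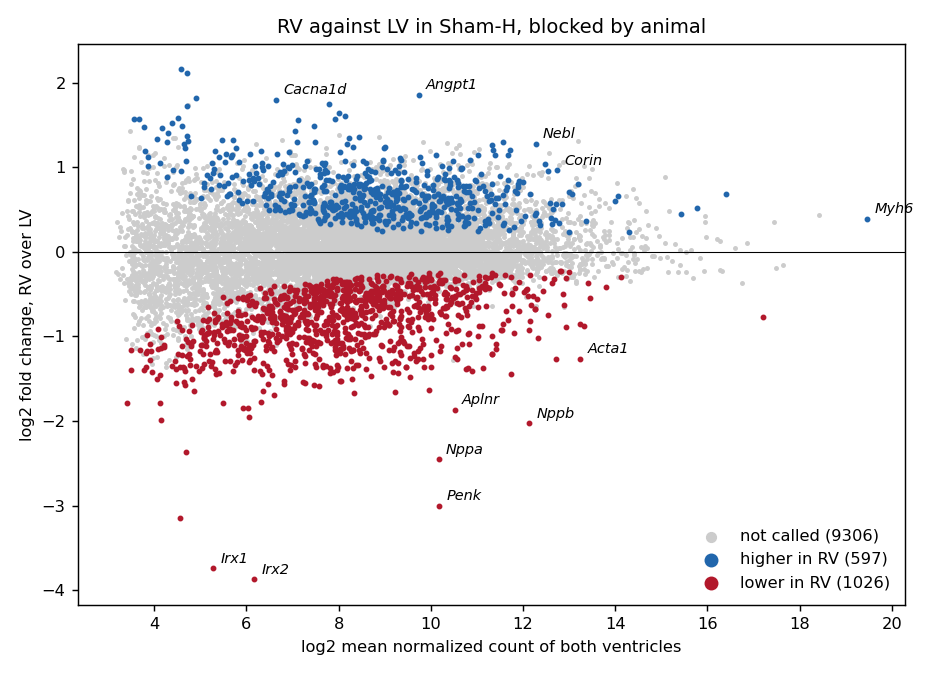
Log2 fold change of the RV over the LV (vertical axis, fit paired by animal) against the log2 mean normalized count of both ventricles (horizontal axis) for the 10929 genes tested in Sham-H. Blue points are the 597 genes higher and red points the 1026 genes lower in the RV at an adjusted p under 0.05, grey points all others, and the largest differences are those of *Irx2* (-3.87) and *Irx1* (-3.74).

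The largest differences of all belonged to 2 neighbouring Iroquois homeobox genes. *Irx2* was close to silent in the RV, where the lowest, median and highest libraries held 2.98, 9.03 and 18 normalized counts, and was expressed in the LV, with 70.3, 135 and 206 (log2 fold change -3.87, SE 0.24, adjusted p = 0.000296). *Irx1* showed the same pattern, with 1.48, 3.97 and 10.1 in the RV and 12.9, 47.5 and 153 in the LV (log2 fold change -3.74, SE 0.43, adjusted p = 0.0016). For both genes every LV library was above every RV library. Without replicate 4 the log2 fold changes were -3.81 and -3.73. Other members of the family did not share this pattern. *Irx4*, which represses atrial genes in ventricular muscle, was slightly higher in the RV (log2 fold change 0.36, SE 0.11, adjusted p = 0.0487), in 6 of 7 animals, a call lost in 9 of 17 other settings. *Irx3* and *Irx5*, which shape repolarization gradients, gave 0.34 (adjusted p = 0.25) and 0.15 (adjusted p = 0.54), and *Irx6* had at most 1 count in a library.

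Among 21 tested transcription factors of the heart and its chambers, 3 were higher and 5 lower in the RV, against 5.46% and 9.39% of all genes, with a median log2 fold change of -0.11 against -0.01 over all genes. The T-box repressors *Tbx3* and *Tbx2*, known from the conduction system and the atrioventricular canal, were both lower. *Tbx3* had 87.6, 116 and 135 normalized counts in the RV and 218, 262 and 394 in the LV, without overlap (log2 fold change -1.34, SE 0.16, adjusted p = 0.0018), and *Tbx2* a log2 fold change of -0.96 (adjusted p = 0.0275). Both Hey genes, targets of Notch signaling, were called and went in opposite directions. *Hey1* was lower (-0.98, adjusted p = 0.019) and *Hey2*, which marks compact ventricular muscle, was higher (0.50, adjusted p = 0.048). The call of *Hey2* was lost in 9 of 17 other settings. Among these was leaving out each single animal (adjusted p from 0.0511 to 0.136, without replicate 4 0.0644). That of *Hey1* was lost in 1, without replicate 5. *Mef2a*, a muscle transcription factor, was higher (log2 fold change 0.81, SE 0.19, adjusted p = 0.0281). Calls of *Mef2a* and *Tbx2* were each lost in 3 of 17 other settings, without replicate 3, 5 or 6. *Nkx2-5*, a core cardiac factor, gave -0.12 (adjusted p = 0.504). *Lhx6*, a LIM homeobox gene, and *Mycn*, a growth regulator of the Myc family, lie outside this list and were both lower in the RV, with log2 fold changes of -1.70 and -1.79.

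Peptide hormone genes formed the next group. *Nppa* and *Nppb*, which lie next to each other and encode the atrial and B-type natriuretic peptides, were both lower in the RV. Nppa had 146, 336 and 452 normalized counts as the lowest, median and highest RV values and 817, 1601 and 4099 in the LV (log2 fold change -2.45, SE 0.26, adjusted p = 0.00122). Nppb had 858, 1799 and 2233 in the RV and 4669, 6471 and 13246 in the LV (log2 fold change -2.03, SE 0.17, adjusted p = 0.000742). In both genes the highest value was that of LV replicate 4, and all LV libraries lay above all RV libraries. Without that animal the log2 fold changes were -2.32 and -1.88. Per length, mean levels in RV and LV were 29.3 and 171 FPKM for Nppa and 199 and 815 FPKM for Nppb. *Penk*, which encodes proenkephalin, the precursor of opioid peptides, had the third largest difference among the genes named by the rule, with 194, 247 and 306 in the RV and 909, 1906 and 3468 in the LV (log2 fold change -3.00, SE 0.26, adjusted p = 0.000742). Opioid receptors were scarcely detected, with at most 4 counts of *Oprm1*, *Oprd1* or *Oprk1* in a library.

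Since both natriuretic peptide genes differed in the same direction, the 250 bases before their start sites are shown in the 5′ to 3′ direction, from RefSeq on the build GRCr8 and the plus strand, chr5:163711934-163712183 for Nppa and chr5:163699758-163700007 for Nppb. Capitals mark GATA factor motifs (TGATAA or AGATAA), the M-CAT core bound by TEAD factors (GGAATG) and a TATA box (TATAAAA), searched on both strands, with no overlap between them.
Nppa: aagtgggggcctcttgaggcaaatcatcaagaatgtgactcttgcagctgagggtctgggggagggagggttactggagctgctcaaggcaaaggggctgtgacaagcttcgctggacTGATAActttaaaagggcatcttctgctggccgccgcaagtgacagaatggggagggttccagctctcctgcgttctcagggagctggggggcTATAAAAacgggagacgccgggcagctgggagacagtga
Nppb: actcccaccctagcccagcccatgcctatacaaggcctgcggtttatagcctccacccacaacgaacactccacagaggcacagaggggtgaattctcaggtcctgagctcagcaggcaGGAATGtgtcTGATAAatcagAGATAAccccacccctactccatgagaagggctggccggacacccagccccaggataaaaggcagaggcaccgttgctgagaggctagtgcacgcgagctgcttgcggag
A GATA motif was found 132 bases before the start of Nppa, and 2 lay 121 and 110 bases before the start of Nppb. The M-CAT letters stood only in the Nppb stretch, 131 bases before the start, and the TATA letters only in that of Nppa, 39 bases before it. Of 33469 rat promoter stretches of this length, 16.9% held a GATA motif, 12.1% the M-CAT core and 5.38% the TATA letters.

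Some genes for the processing and reception of these peptides differed as well. *Corin*, the protease that cuts the atrial peptide precursor, was higher in the RV, with 8228, 8912 and 9706 normalized counts against 3257, 4913 and 5942 in the LV (log2 fold change 0.96, SE 0.12, adjusted p = 0.00215), without overlap. *Npr1*, the receptor of both peptides, was lower, with 380.2, 422 and 466 against 519.9, 803 and 1743 (log2 fold change -1.05, SE 0.21, adjusted p = 0.0135). Of 8 tested genes of the natriuretic peptide system, Nppa and Nppb among them, 1 was higher and 3 were lower in the RV. This compares with 5.46% and 9.39% of all genes, and the median was -0.19. The other genes of the list were not called. *Acta1*, skeletal muscle actin, varied widely between animals. It ranged from 2695 to 9289 in the RV and from 5771 to 27910.2 in the LV, so that the groups overlapped, yet within each animal the RV was lower (log2 fold change -1.27, SE 0.12, adjusted p = 0.000923). *Gdf15*, a stress-induced hormone of the TGF-beta family, behaved likewise, lower in the RV in 7 of 7 animals (log2 fold change -1.58, SE 0.19, adjusted p = 0.0019).

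Among the genes that were higher in the RV, *Angpt1*, the ligand of the receptor Tie2, had 1079.9, 1252 and 1665 normalized counts in the RV and 125, 486 and 694 in the LV (log2 fold change 1.86, SE 0.30, adjusted p = 0.00558). The differences within the animals were largest in replicates 4 and 5, and without replicate 4 the log2 fold change was 1.62. *Cacna1d*, the pore of the Cav1.3 calcium channel, held 133, 154 and 180.3 against 19.4, 54.5 and 59.2 (log2 fold change 1.80, SE 0.23, adjusted p = 0.00215). *Slc24a3*, a potassium-dependent sodium-calcium exchanger, had 419, 481 and 601 in the RV and 168, 189 and 226 in the LV as its lowest, median and highest values (log2 fold change 1.35, SE 0.11, adjusted p = 0.000742), and its log2 fold change was 1.36 without replicate 4. The Eph receptors *Epha3* (1.74, adjusted p = 0.00108) and *Epha7* (1.30, adjusted p = 0.0312), the adhesion molecule *Vcam1* (1.49, adjusted p = 0.000742) and the protocadherin *Pcdh11x* (1.30, adjusted p = 0.0325) were higher. Receptors and their regulators included *Ptgfr* for prostaglandin F (1.61), the GABA receptor subunit *Gabrb2* (1.64), the orphan receptor *Gpr63* (1.42) and the G protein regulator *Rgs7* (1.32). *Etv1*, a transcription factor of fast-conducting muscle, was higher in every RV library than in any LV library, with 262, 360.0 and 506 against 58.1, 132 and 168 (log2 fold change 1.57, SE 0.21, adjusted p = 0.00243). The last of the 15 genes were *Tub* (1.32), *Nebl*, a Z-disc protein (1.279), and *Hook1*, which links cargo to microtubules (1.27).

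The calls of 5 of these 15 genes depended on which animals were included. *Nebl*, *Hook1*, *Epha7*, *Pcdh11x* and *Rgs7* had their largest within-animal log2 differences in replicates 4 and 5, between 2.21 and 3.198, and their smallest in other animals, from 0.05 for Pcdh11x to 0.35 for Epha7. Nebl had 976 and 1226 normalized counts in LV replicates 4 and 5 and lay between 2039 and 5392 in the other LV libraries. Its log2 fold change was 1.03 without replicate 4 and 0.74 without replicates 4 and 5. Hook1 gave 0.70 and Angpt1 1.37 without both animals. All 5 genes were still called then. Their adjusted p was 0.0232 (Nebl), 0.0118 (Hook1), 0.0230 (Epha7), 0.0154 (Pcdh11x) and 0.0395 (Rgs7). Leaving out only replicate 3, 5 or 6 ended each of these calls. The adjusted p of Hook1 was 0.0911, 0.115 and 0.0996 without replicate 3, 5 or 6, that of Nebl 0.0653, 0.0973 and 0.100, that of Epha7 0.0580, 0.0912 and 0.0871, that of Pcdh11x 0.0580, 0.0877 and 0.0855 and that of Rgs7 0.0726, 0.0879 and 0.0679. Hook1 (0.0532) and Pcdh11x (0.0568) were not called without replicate 2 either, and Rgs7 was not called without the pairing by animal (0.0612). The gap between short and long genes was largest in replicates 4 and 5 and smaller in replicate 6. Its part in the result was not tested. Without replicates 4 and 5, 1214 genes (11.1%) were called in either direction, and 119 genes met the fold criteria, 20 of them higher in the RV. Of the 326 genes found with all animals, 110 were among these.

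**Figure D3:**
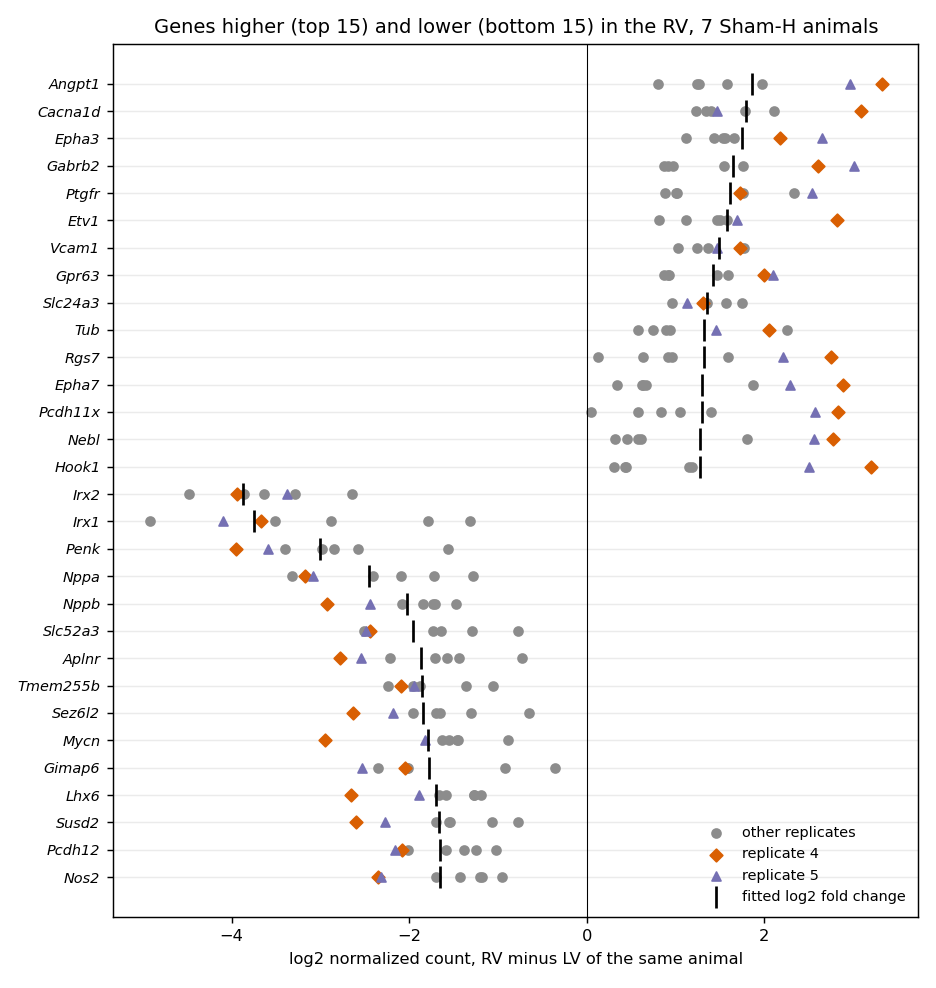
Within-animal differences (log2 normalized count of the RV minus that of the LV) for the 15 genes with the largest log2 fold change in each direction. Each point is 1 of 7 animals, diamonds mark replicate 4, triangles replicate 5, and black ticks the fitted log2 fold change, which runs from -3.87 (*Irx2*) to 1.86 (*Angpt1*).

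Most of the listed endothelial markers were lower in the RV. Of 8 endothelial markers 6 were lower and 0 higher, against 9.39% and 5.46% of all genes, with a median log2 fold change of -0.73. Without replicate 4, 7 were lower. *Cdh5*, the endothelial cadherin, had 939, 1008 and 1184 normalized counts in the RV and 1415, 2249 and 3611 in the LV (log2 fold change -1.09, SE 0.15, adjusted p = 0.00263). *Flt1*, a VEGF receptor, gave 1992, 2325 and 2784 against 3368, 4208 and 5329 (log2 fold change -0.81, SE 0.08, adjusted p = 0.000923). For 5 of the 8 genes the libraries of the ventricles did not overlap, against 5.12% of all genes. *Pecam1* (-0.93), *Egfl7* (-1.15), *Tek* (-0.61), the receptor of Angpt1, and *Kdr* (-0.47) were the others that were lower. Among the 15 genes lower in the RV that the rule named, several are known from endothelium. *Aplnr*, the apelin receptor, held 383, 606 and 754 in the RV and 1043, 2059.8 and 5190.2 in the LV (log2 fold change -1.87, SE 0.23, adjusted p = 0.00209). *Pcdh12*, a protocadherin of endothelial junctions, held 200.0, 269 and 358 and 500.5, 793 and 1527 (log2 fold change -1.65, SE 0.16, adjusted p = 0.000923). *Gimap6*, a GTPase of lymphocytes and endothelium, had a log2 fold change of -1.78. Not all such genes were lower, since *Vcam1*, an adhesion molecule that endothelium can express, was higher in the RV (1.49, adjusted p = 0.000742). *Tie1* (-1.38), an orphan receptor of the Tie family, and *Nos3* (-1.09), endothelial nitric oxide synthase, were chosen after their values were seen and were lower. The endothelial score differed in the same direction in 7 of 7 animals, and its part in these results was not tested.

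The remaining genes that the rule named were *Slc52a3*, a riboflavin transporter, with 15.2, 26.4 and 38.3 normalized counts in the RV and 43.2, 87.9 and 217 in the LV (log2 fold change -1.96, SE 0.24, adjusted p = 0.00208), *Tmem255b* (-1.85), *Sez6l2* (-1.84), *Susd2* (-1.67) and the inducible nitric oxide synthase *Nos2* (-1.65). None of them overlapped between the ventricles, as for 5.12% of all genes, but the rule by which they were chosen favours such genes. In all, 43 higher and 215 lower genes fulfilled the rule.

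Matrix and interferon genes were lower in the RV where they were called. Of 26 matrix genes 7 were lower and 0 higher (median -0.38), against 9.39% and 5.46% of all genes, and also 7 without replicate 4, against 7.89% lower. *Col4a1*, a basement membrane collagen, had 5588, 6919.6 and 7148 against 7939.9, 11235 and 22612 (log2 fold change -0.85, SE 0.15, adjusted p = 0.00764), *Sparc*, a collagen-binding protein, gave -0.89, and *Cilp*, a matrix protein of the interstitium, -1.41 (adjusted p = 0.00434). The fibroblast markers had 0 of 9 genes called, against 14.9% of all genes. Of the mural cell markers 3 of 7 were lower, against 9.39% of all genes, and 1 of 7 without replicate 4, against 7.89%. Of 21 interferon-stimulated genes 9 were lower and 0 higher (median -0.52), against the same shares of all genes, and also 9 without replicate 4. *Rsad2*, which encodes viperin, an antiviral enzyme, had 72.7, 91.2 and 107 in the RV and 160.0, 207 and 305 in the LV, without overlap (log2 fold change -1.21, SE 0.10, adjusted p = 0.000742). *Stat2*, a mediator of interferon signaling, gave -0.50, *Bst2*, which tethers virus particles, -1.21 and *Ifi27* -1.04. Per length, mean RV and LV levels were 1.79 and 4.17 FPKM for Rsad2 and 59.8 and 135 FPKM for Ifi27. The endothelial score was also lower in the RV, in 7 of 7 animals, and its part in both lists was not tested.

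Of 23 sarcomere genes 6 were higher and 1 was lower in the RV (median 0.18), against 5.46% and 9.39% of all genes, and without replicate 4, 3 were higher and 1 lower. *Myh6* had a log2 fold change of 0.39 (adjusted p = 0.0476) and *Tnnt2*, cardiac troponin T, 0.52 (adjusted p = 0.0495). Both calls were lost without replicate 4 (adjusted p = 0.0752 and 0.0828), as was that of *Myom2*, an M-band protein (0.68, adjusted p = 0.0393, without replicate 4 0.0654). For *Myh7*, the slow myosin heavy chain that rises under load, the value was -0.21 (SE 0.08, adjusted p = 0.0751), with RV libraries from 45698 to 121759 and LV libraries from 46145 to 158076. Of 18 calcium cycling genes 4 were higher and 1 was lower (median 0.39), against the same shares of all genes, and 1 was higher and 1 lower without replicate 4. *Cacnb2* and *Cacna2d1*, auxiliary subunits of the calcium channel, were higher (0.57 and 0.84), as were *Trdn* (1.21), triadin, and *Hrc* (0.57), both of the sarcoplasmic reticulum. Without replicate 4 the calls of Cacna2d1, Trdn and Hrc were lost (adjusted p = 0.051, 0.0502 and 0.0622). *Cacna1g*, a T-type channel, was lower (-0.42, adjusted p = 0.0226). Of 17 other settings, which include leaving out each animal, the call of Tnnt2 was lost in 11, that of Myh6 in 9, those of Myom2 and Hrc in 7, that of Cacna1g in 6 and those of Trdn, Cacnb2 and Cacna2d1 in 5.

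Of 25 ion channel and gap junction genes 5 were higher and 5 lower in the RV (median 0.10), against 5.46% and 9.39% of all genes, and 4 and 4 without replicate 4. *Kcnk2*, a stretch-sensitive potassium channel, had 572, 652 and 700.0 normalized counts in the RV and 226, 354 and 447 in the LV (log2 fold change 1.005, SE 0.13, adjusted p = 0.00255). *Kcnj3* (0.85, adjusted p = 0.0135) and *Kcnj5* (0.62, adjusted p = 0.00577), which together form the acetylcholine-activated potassium channel, and *Kcnd3* (0.63), a channel of the transient outward current, were also higher without overlap. *Hcn2*, a pacemaker channel, was lower, with 2788, 3649 and 4158 against 4357, 5150.3 and 8183 (log2 fold change -0.63, SE 0.11, adjusted p = 0.00687), and so was *Gja5* (-0.90), connexin 40 of the conduction system. Of 24 genes of adrenergic and muscarinic signaling 4 were higher and 2 lower, against the same shares of all genes, and 3 and 3 without replicate 4. *Adrb1*, the main beta receptor of cardiomyocytes, gave 0.19 (adjusted p = 0.137). *Adra1a*, an alpha receptor (0.44), *Chrm2*, the muscarinic receptor (0.77, adjusted p = 0.0466, without replicate 4 0.0667), and *Rgs2*, which restrains G protein signals (log2 fold change 1.23, SE 0.26, adjusted p = 0.0173), were higher. The call of Chrm2 was lost in 7 of 17 other settings, that of Adra1a in 3, that of Rgs2 in 2 and that of Hcn2 in 1.

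The lists that follow are to be read against 5.46% of all genes higher and 9.39% lower, or 4.22% and 7.89% without replicate 4. Of 32 fatty acid oxidation genes 2 were higher and 0 lower (median 0.17), namely *Hadh* (0.36) and *Pdk4* (0.58), which blocks pyruvate use. Without replicate 4 neither Hadh (adjusted p = 0.0519) nor Pdk4 (adjusted p = 0.0562) was called, and 1 gene of the list was higher. Pdk4 lost its call in 10 of 17 other settings and Hadh in 8. Of 32 genes of glucose use 2 were higher and 0 lower (median -0.04), among them the muscle enolase *Eno3*, with 6843, 7269 and 9180.1 in the RV and 4632, 5244 and 6465 in the LV (log2 fold change 0.51, SE 0.09, adjusted p = 0.00652). Oxidative phosphorylation subunits had 5 of 76 higher and 1 lower, a share of 7.89% called against 14.9% over all genes, and 8 higher and 0 lower without replicate 4. Cytosolic ribosomal proteins, many of which have near-identical copies in the genome and are uncertain for that reason, had 9 of 79 higher and 0 lower, and 11 higher without replicate 4. Mitochondrial ribosomal proteins had 3 of 66 higher, 5 without replicate 4, and proteasome subunits 1 of 37. The medians of these 4 lists lay between -0.03 and 0.09. Growth factors and hormones had 3 of 24 higher and 4 lower, among them *Tgfb1* (-0.93) and, in the other direction, *Fgf16* (0.39), a growth factor of heart muscle. The immediate early genes, which respond to tissue dissociation, had 0 of 25 higher and 4 lower, and the heat shock proteins 0 of 20 higher and 2 lower. Their shares called, 16% and 10%, were near the 14.9% of all genes. Of 15 clock genes 3 were higher and 1 was lower. These were *Nr1d1* (0.56), *Nr1d2* (0.68) and *Dbp* (0.41), each in 7 of 7 animals, while *Cry2* was lower (-0.36), a call lost without replicate 4 (adjusted p = 0.0519). Dbp lost its call in 8 of 17 other settings, and Nr1d1 and Nr1d2 in 6.

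**Figure D4:**
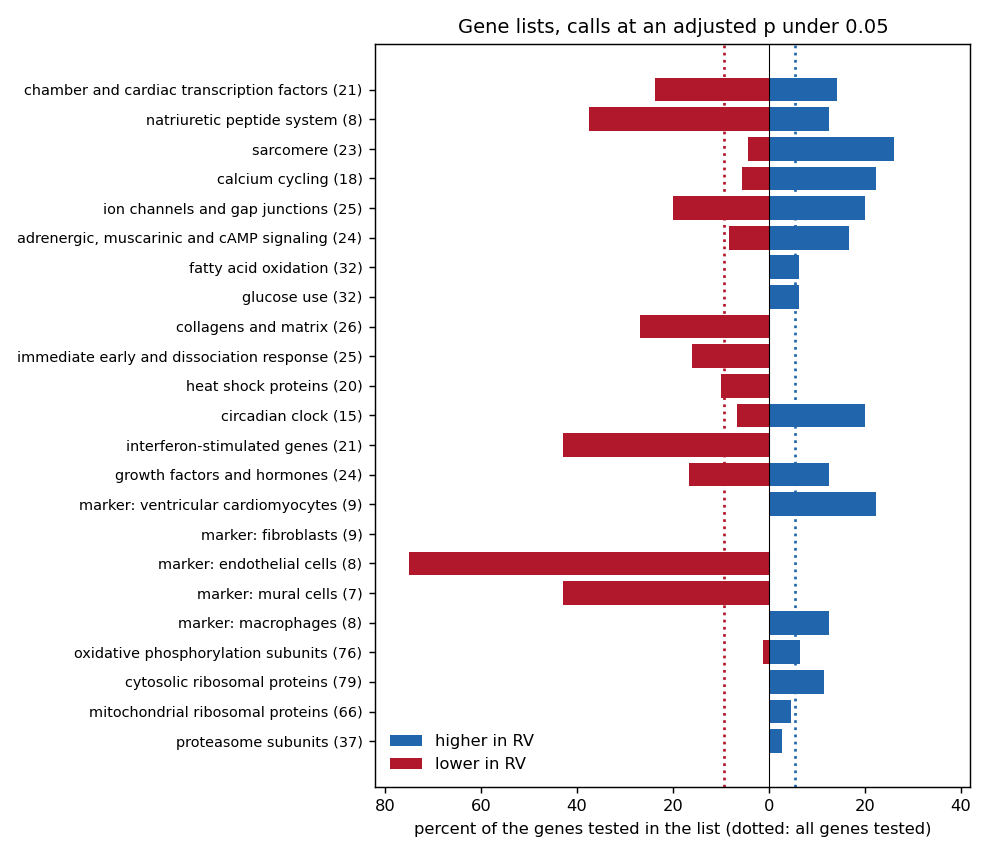
Percent of the tested genes of each list (number tested in parentheses) that were higher (blue, to the right) or lower (red, to the left) in the RV at an adjusted p under 0.05. Dotted lines give the share of all 10929 genes, 5.46% higher and 9.39% lower. Of the endothelial markers 6 of 8 genes were lower.

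The older sham animals served as an independent comparison. In Sham-F (9 animals) 38.7% of the genes were higher and 40.1% lower in the RV, so that most genes were called. All 15 named genes higher in the RV of Sham-H were higher there too, and all 15 lower genes were lower. Of the 43 and 215 genes that fulfilled the rule, 41 and 215 were called in the same direction in Sham-F. The size of the difference was compared by the interaction of ventricle and age group, which was significant for 5775 of 11420 genes (50.6%). It was significant for 19 of the 30 named genes, each of them with the larger difference in Sham-F. *Nppa* had a log2 fold change of -2.45 in Sham-H and -3.87 in Sham-F (adjusted p of the difference = 0.00114), and *Aplnr* -1.87 and -3.25 (adjusted p = 0.000364). The values of *Irx2* (-3.87 and -3.72), *Irx1* (-3.74 and -3.99), *Penk* (-3.00 and -3.02), *Cacna1d* (1.80 and 1.79) and *Slc24a3* (1.35 and 1.40) did not pass this test, with adjusted p values of 0.788, 0.761, 0.946, 0.958 and 0.822. Age and time after surgery cannot be told apart in this comparison.

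In the banded animals the same genes were read in 1 fit over all 82 libraries, each condition with its own animals. In AOB-H (6 animals), where the LV is loaded, 12 of the 15 higher and 15 of the 15 lower genes were called in the same direction, against 4.46% and 9.29% of all genes. In PAB-H (6 animals), where the RV is loaded, 9 and 10 were called, against 0.979% and 0.535%. *Irx1* and *Irx2* had log2 fold changes of -4.47 and -3.39 in PAB-H. *Nppa* gave -0.28 (adjusted p = 0.73), *Nppb* -0.92 (adjusted p = 0.0256), *Penk* -1.26 (adjusted p = 0.0326) and *Acta1* 0.48 (adjusted p = 0.368). At the failing stage, 15 and 15 genes were called in AOB-F (7 animals, against 34.6% and 36% of all genes) and 14 and 12 in PAB-F (6 animals, against 34.1% and 32.2%). The 3 lower genes not called in PAB-F were *Nppa* (-0.19), *Nppb* (-0.43) and *Penk* (-0.54), and the higher gene not called was *Pcdh11x* (0.47). No named gene was called in the opposite direction in any condition. Differences between Sham-H and the banded groups were not tested.

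**Figure D5:**
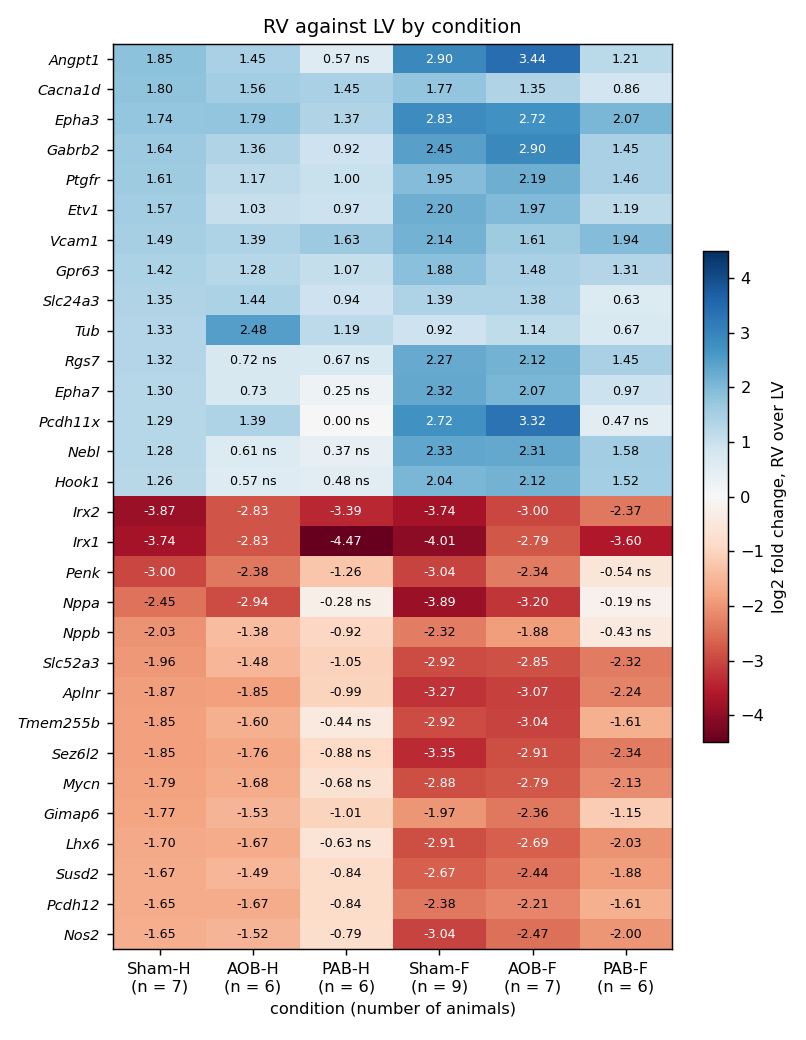
Log2 fold change of the RV over the LV for the 30 named genes (rows) in each condition (columns, with the number of animals), from 1 fit over 82 libraries paired by animal. Blue is higher and red lower in the RV, ns marks an adjusted p of 0.05 or more, and *Irx1* runs from -4.47 in PAB-H to -2.79 in AOB-F.

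The comparison of the sexes was made with 3 males and 4 females. By the interaction of ventricle and sex in edgeR, 0 of 10929 genes (0%) passed an adjusted p of 0.05, and 1377 had an unadjusted p under 0.05. *Irx2* had log2 fold changes of -4.42 in males and -3.59 in females, *Penk* of -2.53 and -3.35, and *Angpt1* of 1.36 and 2.27. Replicates 4 and 5, whose LV libraries stood apart, were both female. Without replicate 7, a female, 1233 genes passed, so that this count rested on 1 animal.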

How the data were processed

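Cardiomyocyte RNA of 41 rats was sequenced after removal of ribosomal RNA, and the 14 Sham-H libraries were analysed here. The authors trimmed reads with Trim Galore, aligned them with STAR to Rnor6.0 and assigned them to genes with featureCounts, and the deposited table holds raw counts per gene and library. It also holds counts that the authors normalized with DESeq2 1.28.1 size factors before they were deposited, a signal used to check the scale. FPKM values made by the authors were used for levels per length. Gene lengths, which define the short and long genes, were derived from these FPKM values and the counts. Columns with the authors' own comparisons were not used.

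Raw counts were tested with the quasi-likelihood F test of edgeR 4.0.16 (R 4.3.3) with TMM factors, the default expression filter, the animal as a block and Benjamini-Hochberg adjustment over all genes tested. Normalized counts are raw counts scaled to a common effective library size of 14119686, the mean over the 14 libraries. The animal number in the titles pairs the libraries. The deviations of both ventricles of 1 animal correlated with r between 0.098 and 0.303, and those of different animals had a median of -0.069. Errors are SE of the fit. With the animal as a block, p-values measure how the difference between RV and LV within an animal varies over the animals. No pair of libraries agreed within sampling noise. Marker scores (mean log2 CPM, prior count 2) were tested by exact two-sided sign flips over 7 animals. Scripts were tested on simulated data.

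Genes were named by a rule: up to 15 in each direction with the largest log2 fold change among those meeting the fold criteria, with an adjusted p under 0.05 with all animals and without replicate 4, and on the same side in 7 animals. Predicted symbols were only counted. Other genes come from gene lists, except where said, and some list members are counted but not reported here by name. The comparison, members and lists were chosen with earlier results of these data known. Alternatives were other normalizations and filters, DESeq2 1.42.0, limma 3.58.1 with quality weights, fits with other samples or without the block, and leaving out animals. Promoter sequences come from the RefSeq table of GRCr8, a build other than that of the counts. Figures were drawn with matplotlib 3.10.9.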

Additional observations from a re-analysis of the deposited data

Results flagged for a closer look

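For 55 of 85 genes examined in this way, the difference between RV and LV was not the same in the older and the younger sham animals, by the interaction of ventricle and age group in edgeR (adjusted p under 0.05, as for 50.6% of all genes). The values are the log2 fold change of the RV over the LV in Sham-F minus that in Sham-H, so that a positive value means a higher RV to LV ratio in the older animals.

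Among the genes chosen by the rule as higher in the RV, the differences were *Angpt1* (1.05), *Epha3* (1.10), *Gabrb2* (0.81), *Etv1* (0.64), *Vcam1* (0.66), *Rgs7* (0.96), *Epha7* (1.03), *Pcdh11x* (1.44) and *Nebl* (1.06), and among those lower in the RV they were *Nppa* (-1.43), *Slc52a3* (-0.95), *Aplnr* (-1.39), *Tmem255b* (-1.06), *Sez6l2* (-1.497), *Mycn* (-1.08), *Lhx6* (-1.20), *Susd2* (-0.997), *Pcdh12* (-0.72) and *Nos2* (-1.38). Of the other genes, positive values were found for *Hey2* (0.99), *Mef2a* (0.84), *Myh6* (0.50), *Myom2* (0.61), *Tnnt2* (0.52), *Trdn* (0.84), *Cacnb2* (0.85), *Cacna2d1* (0.81), *Kcnk2* (0.46), *Kcnj3* (0.59), *Kcnj5* (0.35), *Adra1a* (0.41), *Chrm2* (1.04), *Rgs2* (1.55), *Pdk4* (1.01), *Hadh* (0.67) and *Nr1d2* (0.47). Negative values were found for *Npr1* (-0.92), *Tbx2* (-1.24), *Tbx3* (-0.54), *Hey1* (-0.74), *Irx3* (-0.62), *Nkx2-5* (-0.73), *Cacna1g* (-0.59), *Hcn2* (-0.48), *Egfl7* (-1.22), *Bst2* (-1.81), *Ifi27* (-1.43), *Cilp* (-0.91), *Col4a1* (-1.07), *Sparc* (-0.91), *Tgfb1* (-1.51), *Nr1d1* (-0.76), *Dbp* (-0.70), *Tie1* (-1.27) and *Nos3* (-1.09). *Dbp*, a clock output gene, was higher in the RV of Sham-H (0.41) and lower in that of Sham-F (-0.29, adjusted p = 0.00857).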

How the results depend on the processing

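The number of genes with an adjusted p under 0.05, 1623 (597 higher), was 1499 without the replicate block, 3887 (2114 higher) in a blocked fit over 82 libraries, 2510 (1150) in that fit without the block and 3105 (1691) with DESeq2 and the animal. Higher genes were the majority in the blocked fit over 82 libraries and with DESeq2 and the animal, and the minority in the other fits named here. Leaving out 1 animal gave between 511 and 1615 (104 to 627 higher). The number meeting the fold criteria, 326 (86 higher), was 341 (39 higher) without the replicate block, 200 (13) with shrunken DESeq2 fold changes, 157 (17) with quality weights, and 119 (20) without replicates 4 and 5, an alternative chosen after seeing the data. The higher genes numbered 41 over 82 libraries without the block and 148 with DESeq2 and the animal. Leaving out 1 animal gave 194 to 463 (24 to 151 higher). The count for the sexes ranged from 0 to 1233. With the median over genes, the score differences of ventricular (-0.10) and atrial cardiomyocytes (0.25), mural (0.0699) and mesothelial cells (0.24) changed sign, as did mesothelial cells at a prior count of 0.5 (0.0428). Leaving out 1 animal gave -0.19 to 0.0413 for atrial cardiomyocytes, -0.0449 to 0.0147 for neutrophils and -0.21 to 0.25 for mesothelial cells. *Irx5* was -0.0033 without replicate 2 and *Nkx2-5* 0.0290 with quality weights. For the 30 genes named by the rule, the rule itself fixed the outcome without replicate 4 and favoured genes that keep their call. Of their values under alternatives, 492 kept direction and call and 18 kept only direction. For the other 55 genes the numbers were 788 and 142, with 3 newly called and 2 of opposite sign. The cause was not tested. Depth limits genes with few counts.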
